A study of Lytechinus variegatus with 9 samples.

Results

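The Wnt pathway genes of *Lytechinus variegatus* were followed in whole embryos in which BMP or VEGF receptor signaling had been inhibited during the growth of the skeleton. They were chosen by the annotated description of each gene and by a total of at least 30 counts over all libraries. The description had to name a Wnt, Frizzled, Dickkopf, Dishevelled, R-spondin, Porcupine, NOTUM, TCF7-type factor, LRP6, APC or glycogen synthase kinase. Descriptions that hold axin- or catenin beta were also taken. This gave 65 of the 26814 genes in the count table. Of these, 38 name a protein of the pathway: 11 Wnt ligands, 7 extracellular antagonists, 9 receptors, 6 cytoplasmic transducers, 2 TCF7L2 genes, 2 factors of Wnt secretion and 1 R-spondin. The other 27 were caught because the letters of axin occur inside another word (16 syntaxin, 7 ataxin, 2 metaxin, 1 leupaxin and 1 aprataxin descriptions), and they are kept apart below. A further 3 genes described as LRP6-like matched by name but had fewer than 30 counts.

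Wnt proteins are secreted, lipid-modified ligands that bind Frizzled receptors and the co-receptors LRP5 and LRP6. In the canonical branch, Dishevelled then restrains the destruction complex of axin, APC and glycogen synthase kinase-3, so that β-catenin accumulates and acts with TCF factors on transcription. In the sea urchin, this branch specifies the endoderm and mesoderm at the vegetal pole of the early embryo, and other branches act through the cytoskeleton and planar cell polarity. Secreted antagonists limit the range of the ligands: WIF1 and secreted Frizzled-related proteins bind Wnts, Dickkopf proteins bind LRP5 and LRP6, and NOTUM removes the lipid that Wnts need for activity.

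Wild-type embryos of 3 separate matings were used, and each mating supplied 1 library treated with K02288 at 1 µM, 1 treated with axitinib at 75 nM and 1 treated with DMSO, the solvent control, so that there were 3 libraries per treatment. K02288 inhibits the type I BMP receptors and axitinib inhibits the VEGF receptor. Treatment started between 18 and 20 hours post-fertilization (hpf), after the tri-radiate spicule rudiments had formed, and the plutei were collected at 2 days post-fertilization (dpf) at 21 °C. All tissues of the embryo are pooled in each library, so fewer cells of a type and less RNA per cell cannot be told apart. Library totals ran from 9359212 to 11815263 counts, and a gene without counts in a library could still hold up to 3 counts there, which covers counting error only.

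Values per library are normalized counts, in which TMM scaling brings every library to the mean size, and levels of different genes are compared only as FPKM, which divides by gene length. Each pair of treatments, 6 libraries, was compared by the quasi-likelihood test of edgeR. A gene was called by either of 2 rules. The first leaves the mating out and takes an unadjusted *P* of at most 0.05, the cutoff of the study, for which no adjustment is stated; the adjusted *P* of this fit is printed beside each such call. The second has the mating as a term and takes a Benjamini-Hochberg adjusted *P* under 0.05 over all genes tested. Of the 65 genes, 63 passed the filter on low counts in every comparison, among them 37 of the 38 pathway genes. The genes left untested were an LRP6-like gene (LOC121428931), with between 0.884 and 12.2 normalized counts in the 9 libraries, and a syntaxin-binding protein 5-like gene (LOC121414469).

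In control embryos, the most abundant pathway transcripts encoded intracellular transducers and a pair of receptors. Glycogen synthase kinase-3 had 47.1 ± 1.59 FPKM in DMSO embryos (SD, n = 3), frizzled-5-like 43.3 ± 5.42 FPKM and frizzled-2-like 41.0 ± 4.43 FPKM. The FPKM ranges of these Frizzled genes overlapped, and both were separated from the next receptor, LRP6-like LOC121421396, at 8.47 ± 1.05 FPKM. The lowest of the cytoplasmic transducers was APC-like at 3.42 ± 0.547 FPKM. The 11 ligands spanned 2.35 to 21.0 FPKM with a median of 10.5 FPKM. Wnt-3-like was the highest (21.0 ± 2.72 FPKM), followed by Wnt-5b-like (17.4 ± 2.09 FPKM), whose range overlapped that of Wnt-3-like. Wnt8 (13.3 FPKM), Wnt-1-like (12 FPKM), Wnt-1 (10.6 FPKM) and Wnt-4-like (10.5 FPKM) came next, and no neighbors among them were separated. Wnt-7b-like (8.29 FPKM) stood apart from its neighbors on both sides. It was followed by Wnt-6-like (5.77 FPKM) and Wnt-16-like (5.26 FPKM), which overlapped, and by Wnt-9a-like (2.42 FPKM) and Wnt-10b-like (2.35 FPKM), which overlapped each other. Among the antagonists, both WIF1-like genes and secreted Frizzled-related protein 5-like lay near 30.4 to 31.1 FPKM, while dickkopf-2-like had 4.61 FPKM and the lowest, secreted Frizzled-related protein 3-like LOC121417513, had 1.19 FPKM. The R-spondin-2-like gene had 5.88 FPKM and the TCF7L2 genes 4.0 and 3.15 FPKM. Wntless, which carries Wnts to the cell surface, and Porcupine, which attaches their lipid, had 3.72 and 1.74 FPKM.

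**Figure D1:**
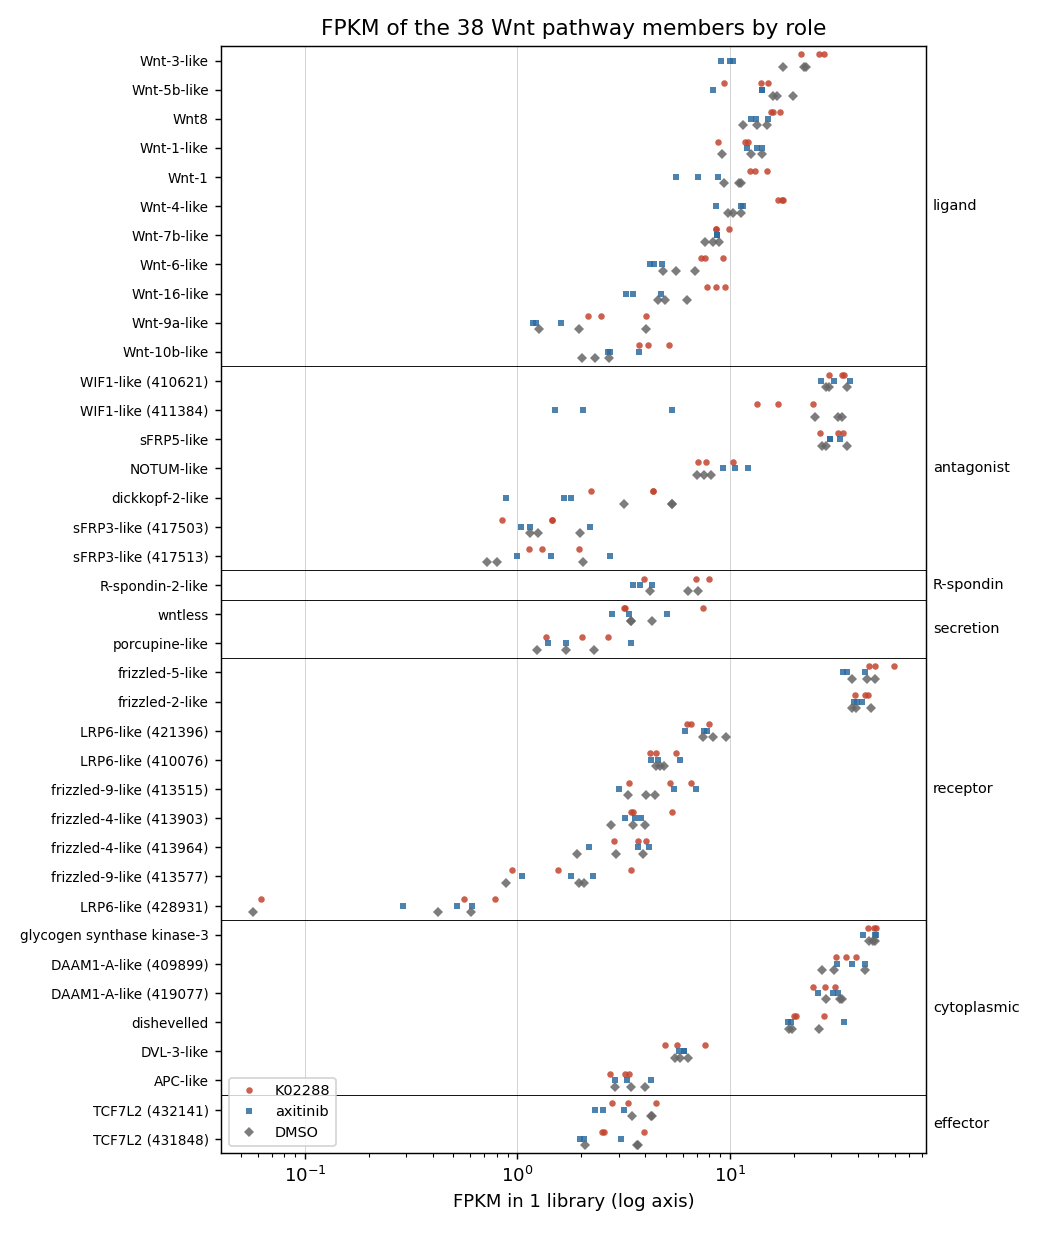
FPKM (log axis) of the 38 pathway members in each library, ordered by role and by mean FPKM in DMSO embryos. Circles are K02288, squares axitinib and diamonds DMSO libraries, with 3 of each per gene. Glycogen synthase kinase-3 and frizzled-2-like lie together in all treatments, whereas the axitinib squares of the WIF1-like gene LOC121411384 lie far left of its DMSO diamonds.

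With K02288, 4 Wnt ligands were higher than in DMSO and 1 antagonist was lower. Wnt-10b-like, Wnt-4-like, Wnt-16-like and Wnt-6-like rose, by log2 fold changes of 0.89, 0.73, 0.72 and 0.49 without the mating, and the WIF1-like gene LOC121411384 fell, by 0.73. The same 5 genes passed both rules. Higher calls were 4 of the 63 members tested, against 1.22% of all 16288 genes tested without the mating and 1.83% with it, and lower calls were 1 of 63, against 1.23% and 1.05%. Of the 37 pathway genes tested, these 5 were 13.5%. The median log2 fold change was 0.29 over the 11 ligands and 0.01 over all genes tested, without the mating. No member had an adjusted *P* under 0.05 in edgeR without the mating, where 5 passed at the unadjusted threshold, and DESeq2 without the mating also gave 0 and 5.

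With axitinib, the calls were mostly lower, and they fell on antagonists and ligands alike. The WIF1-like gene LOC121411384 fell by 3.36 on the log2 scale, dickkopf-2-like by 1.67, Wnt-3-like by 1.10, a TCF7L2 gene by 0.58 and Wnt-1 by 0.56 without the mating, and these 5 also passed with the mating. R-spondin-2-like passed only without the mating and Wnt-5b-like only with it. NOTUM-like rose by 0.49 under both rules. Lower calls were 6 of the 63 members tested under either rule, against 3.07% of all 16035 genes tested without the mating and 3.44% with it. Higher calls were 1 of 63, against 1.77% and 2.79%. The median log2 fold change of the ligands was -0.36, against 0.01 over all genes, without the mating. Without the mating, 0 members had an adjusted *P* under 0.05 in edgeR, where 7 passed at the unadjusted threshold, whereas DESeq2 gave 3 (the WIF1-like gene LOC121411384, Wnt-3-like and dickkopf-2-like). The comparisons with DMSO share the DMSO libraries, so the direct comparison of the drugs is given beside them.

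Set directly against axitinib, K02288 left 10 pathway genes higher and none lower under either rule. They were 6 ligands (Wnt-3-like, Wnt-16-like, Wnt-9a-like, Wnt-1, Wnt-6-like and Wnt-4-like), the antagonists WIF1-like LOC121411384 and dickkopf-2-like, R-spondin-2-like and frizzled-5-like. Higher calls were 10 of the 63 members tested, against 3.22% of all 16197 genes tested without the mating and 5.06% with it. Lower calls were 1 of 63 without the mating, a syntaxin, against 1.77%, and 0 of 63 with it, against 3.10%. In edgeR with the mating, 18 of the 63 members had an unadjusted *P* of at most 0.05, against 19.6% of all genes tested. DESeq2 with the mating called 8 members in this comparison. Without the mating, 1 member had an adjusted *P* under 0.05 in edgeR. DESeq2 without the mating gave 5 (the WIF1-like gene LOC121411384, Wnt-3-like, Wnt-16-like, Wnt-1 and Wnt-6-like). The median log2 fold change of the 11 ligands was 0.74, against -0.01 over all genes tested, and 10 of the 11 were positive. Over all 3 comparisons and both rules, 15 members were called at least once, 14 of them pathway genes and 8 of them ligands. No matching share over all genes was taken, so this count is a description. Of the pathway genes, 24 were called in none, 23 of them among those tested.

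**Figure D2:**
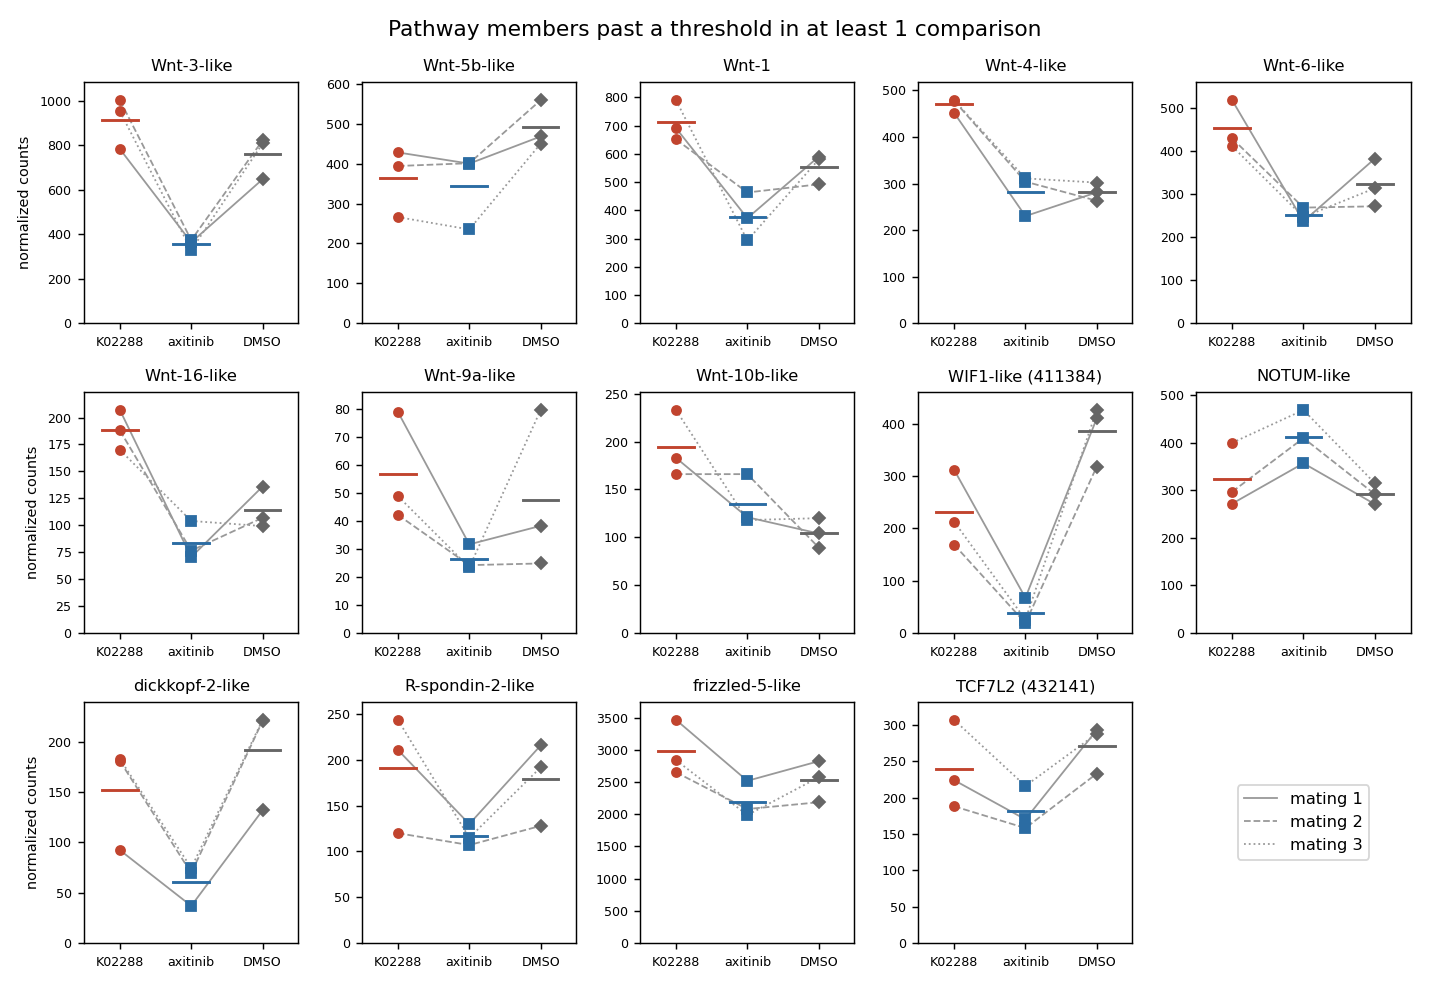
Normalized counts of the 14 pathway members past a threshold in at least 1 comparison, on axes that start at 0. Symbols are single libraries, short bars are means of 3, and gray lines join libraries of the same mating. In the Wnt-3-like panel the axitinib libraries lie between 329 and 374, below all other libraries, and in the Wnt-4-like panel the K02288 libraries lie between 452 and 479, above all others.

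Wnt-4-like (LOC121427358, chromosome 14, 15528492 to 15569665) encodes a ligand that in mammals acts in the kidney and female gonad. It had 452, 478 and 479 normalized counts with K02288, 230, 304 and 311 with axitinib, and 281, 263 and 302 with DMSO. The K02288 libraries lay above all the others, while the axitinib and DMSO libraries overlapped. K02288 against DMSO gave a log2 fold change of 0.73 ± 0.152 (SE, adjusted *P* = 1) without the mating, and 0.74 ± 0.116 (adjusted *P* = 0.00158) with it. Axitinib against DMSO gave -0.01, with a 95% interval of -0.30 to 0.29 with the mating. K02288 was higher than axitinib by 0.75 ± 0.114 with the mating (adjusted *P* = 0.000589). Wnt-4-like was the second ligand by FPKM in K02288 embryos (17.5 ± 0.548 FPKM) and the sixth in DMSO embryos (10.5 ± 0.735 FPKM).

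Wnt-10b-like (LOC121425122, chromosome 1, 82238104 to 82264722), whose mouse relative promotes the formation of bone-forming cells, had 183, 166 and 233 normalized counts with K02288, 121, 166 and 118 with axitinib, and 104, 89.3 and 120 with DMSO. The K02288 and DMSO libraries did not overlap, and the axitinib libraries reached into both. K02288 against DMSO gave 0.89 ± 0.231 (adjusted *P* = 1) without the mating and 0.89 ± 0.157 (adjusted *P* = 0.00402) with it. Axitinib against DMSO gave 0.37 ± 0.203 (adjusted *P* = 0.375), and K02288 against axitinib 0.52 ± 0.184 (adjusted *P* = 0.113), both with the mating. The K02288 call with the mating was lost in limma on log2(FPKM + 1), where the value was 0.67 (adjusted *P* = 0.0722).

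Wnt-16-like (LOC121410054, chromosome 3, 5156886 to 5174906) had 207, 188 and 170 normalized counts with K02288, 70.5, 76.5 and 104 with axitinib, and 136, 107 and 99.3 with DMSO. The K02288 libraries were above all the others, and axitinib and DMSO overlapped. The log2 fold change was 0.72 ± 0.213 for K02288 against DMSO without the mating (adjusted *P* = 1) and 0.72 ± 0.156 with it (adjusted *P* = 0.0168). Axitinib against DMSO gave -0.46 ± 0.220 with the mating (adjusted *P* = 0.299). Between the drugs the difference was 1.18 ± 0.187 with the mating (adjusted *P* = 0.00078), or 2.27-fold. The K02288 call with the mating was lost without mating 2 (0.68, adjusted *P* = 0.0644), in DESeq2 (0.72, adjusted *P* = 0.119) and in limma on log2(FPKM + 1) (0.63, adjusted *P* = 0.0542).

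Wnt-9a-like, Wnt-1 and Wnt-6-like lie next to each other on chromosome 1, at 78290906 to 78329435, 78340973 to 78379301 and 78414138 to 78439017. The annotation places 0 genes in the 11537 bases between Wnt-9a-like and Wnt-1 and 0 genes in the 34836 bases between Wnt-1 and Wnt-6-like, and Wnt-1 is on the opposite strand to both neighbors. In animals, Wnt genes of these families are often found side by side. All 3 were higher with K02288 than with axitinib under both rules, without overlap of the libraries. Of all genes tested, 5.40% were higher without overlap in this comparison.

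Wnt-6-like (LOC121424125) had 519, 430 and 412 normalized counts with K02288, 237, 269 and 247 with axitinib, and 383, 272 and 314 with DMSO. K02288 was highest and axitinib lowest in every mating, and neither drug overlapped DMSO. K02288 against DMSO gave 0.49 ± 0.190 (adjusted *P* = 1) without the mating and 0.49 ± 0.116 (adjusted *P* = 0.0269) with it. The axitinib difference was -0.35 ± 0.146 with the mating (adjusted *P* = 0.206) and was not called. The difference between the drugs was 0.85 ± 0.122 (adjusted *P* = 0.000351), or 1.80-fold. The K02288 call was lost with the mating when mating 2 was left out (0.41, adjusted *P* = 0.184), in DESeq2 (0.49, adjusted *P* = 0.12) and in limma on log2(FPKM + 1) (0.43, adjusted *P* = 0.157), and without the mating when K02288 library 1 or 2 or DMSO library 2 or 3 was left out (0.38 to 0.52).

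Wnt-1 (LOC121424114), the ligand that in mouse maintains the midbrain and hindbrain boundary, had 691, 651 and 790 normalized counts with K02288, 372, 463 and 293 with axitinib, and 590, 492 and 580 with DMSO. The treatments did not overlap in any pair. With K02288 the log2 fold change against DMSO was 0.36 ± 0.102 with the mating, which did not pass (adjusted *P* = 0.0772). With axitinib it was -0.56 ± 0.204 without the mating (adjusted *P* = 0.846) and -0.57 ± 0.147 with it (adjusted *P* = 0.0294). The direct difference of 0.93 ± 0.142 passed with an adjusted *P* of 0.00057. The axitinib call was lost with the mating without mating 1 (-0.53) or mating 3 (-0.37, adjusted *P* = 0.347), in DESeq2 (-0.58) and in limma on log2(FPKM + 1) (-0.52), and without the mating when axitinib library 1 or 3 or DMSO library 1 or 3 was left out (-0.55 to -0.41). A separate gene described as Wnt-1-like (LOC121415575, chromosome 5) was not called, and its axitinib difference was 0.16, with an interval of -0.09 to 0.40.

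Wnt-9a-like (LOC121424104) was one of the lowest ligands, with 78.8, 42.1 and 48.8 normalized counts with K02288, 31.6, 24.2 and 23.4 with axitinib, and 38.2, 24.8 and 79.5 with DMSO. The DMSO libraries spread widely, with the highest in mating 3, and overlapped both drugs. K02288 against axitinib gave 1.10 ± 0.387 (adjusted *P* = 0.748) without the mating and 1.07 ± 0.311 (adjusted *P* = 0.0477) with it, and the gene passed in no comparison with DMSO. The call with the mating was lost without mating 1 (0.93) or mating 3 (1.07), in DESeq2 (1.06, adjusted *P* = 0.250) and with all 9 libraries in 1 fit (1.07, adjusted *P* = 0.0991). The call without the mating was lost without K02288 library 1 (0.78) or axitinib library 2 (1.04) or 3 (1.02).

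Wnt-3-like (LOC121426221, chromosome 1, 86059056 to 86063345), whose mouse relative is needed to form the primitive streak, had 784, 1004 and 954 normalized counts with K02288, 364, 374 and 329 with axitinib, and 648, 823 and 809 with DMSO. All axitinib libraries were below all others, and K02288 and DMSO overlapped. For axitinib against DMSO the value was -1.10 ± 0.164 (adjusted *P* = 0.0691) without the mating and -1.09 ± 0.119 (adjusted *P* = 2.9e-05) with it, a level 2.13-fold lower. K02288 against DMSO gave 0.26, with a 95% interval of 0.06 to 0.47 and an adjusted *P* of 0.192 with the mating. K02288 against axitinib gave 1.36 ± 0.161 without the mating and was the only call of a member in edgeR with an adjusted *P* under 0.05 without the mating (0.0388). Wnt-3-like was the first ligand by FPKM in K02288 embryos (25.2 ± 3.17 FPKM) and DMSO embryos (21.0 ± 2.72 FPKM), and the fifth in axitinib embryos (9.80 ± 0.638 FPKM). The axitinib calls of this gene held in all the alternatives that kept each rule's fit, and without each library or mating in turn.

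Wnt-5b-like (LOC121411849, chromosome 3, 71149765 to 71188376) encodes the Wnt5 ligand, which in this species signals from the endoderm to the ectoderm beside it before skeleton patterning. It had 428, 394 and 266 normalized counts with K02288, 400, 401 and 235 with axitinib, and 468, 559 and 450 with DMSO. Both drugs lay below DMSO in all 3 matings, and the libraries of mating 3 were the lowest with each treatment. The axitinib difference was -0.51 ± 0.237 (adjusted *P* = 1) without the mating, where it was not called, and passed only with it (-0.54 ± 0.137, adjusted *P* = 0.0272). The K02288 difference of -0.46 ± 0.127 did not pass (adjusted *P* = 0.0642), and the direct difference between the drugs was 0.08, with an interval of -0.15 to 0.32. The axitinib call was lost without mating 2 (-0.57) or mating 3 (-0.35, adjusted *P* = 0.340), in DESeq2 (-0.54) and in limma on log2(FPKM + 1) (-0.51).

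The remaining ligands, Wnt8, Wnt-7b-like and Wnt-1-like, were called in no comparison. Wnt8, which drives endomesoderm specification in the early sea urchin embryo, had 351, 326 and 320 normalized counts with K02288, 270, 311 and 256 with axitinib, and 235, 305 and 274 with DMSO. Its K02288 libraries lay above the others, but the log2 fold change against DMSO of 0.29 ± 0.132 did not pass (adjusted *P* = 0.342). Wnt-7b-like varied between 278 and 361 normalized counts over all 9 libraries. Summed over the 11 ligands, FPKM was 131, 132 and 124 in K02288 embryos, 87.9, 95.3 and 81.0 in axitinib embryos and 108, 110 and 109 in DMSO embryos, so that the treatments did not overlap. This sum is a description, in which Wnt-3-like weighs most in K02288 and DMSO embryos.

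**Figure D3:**
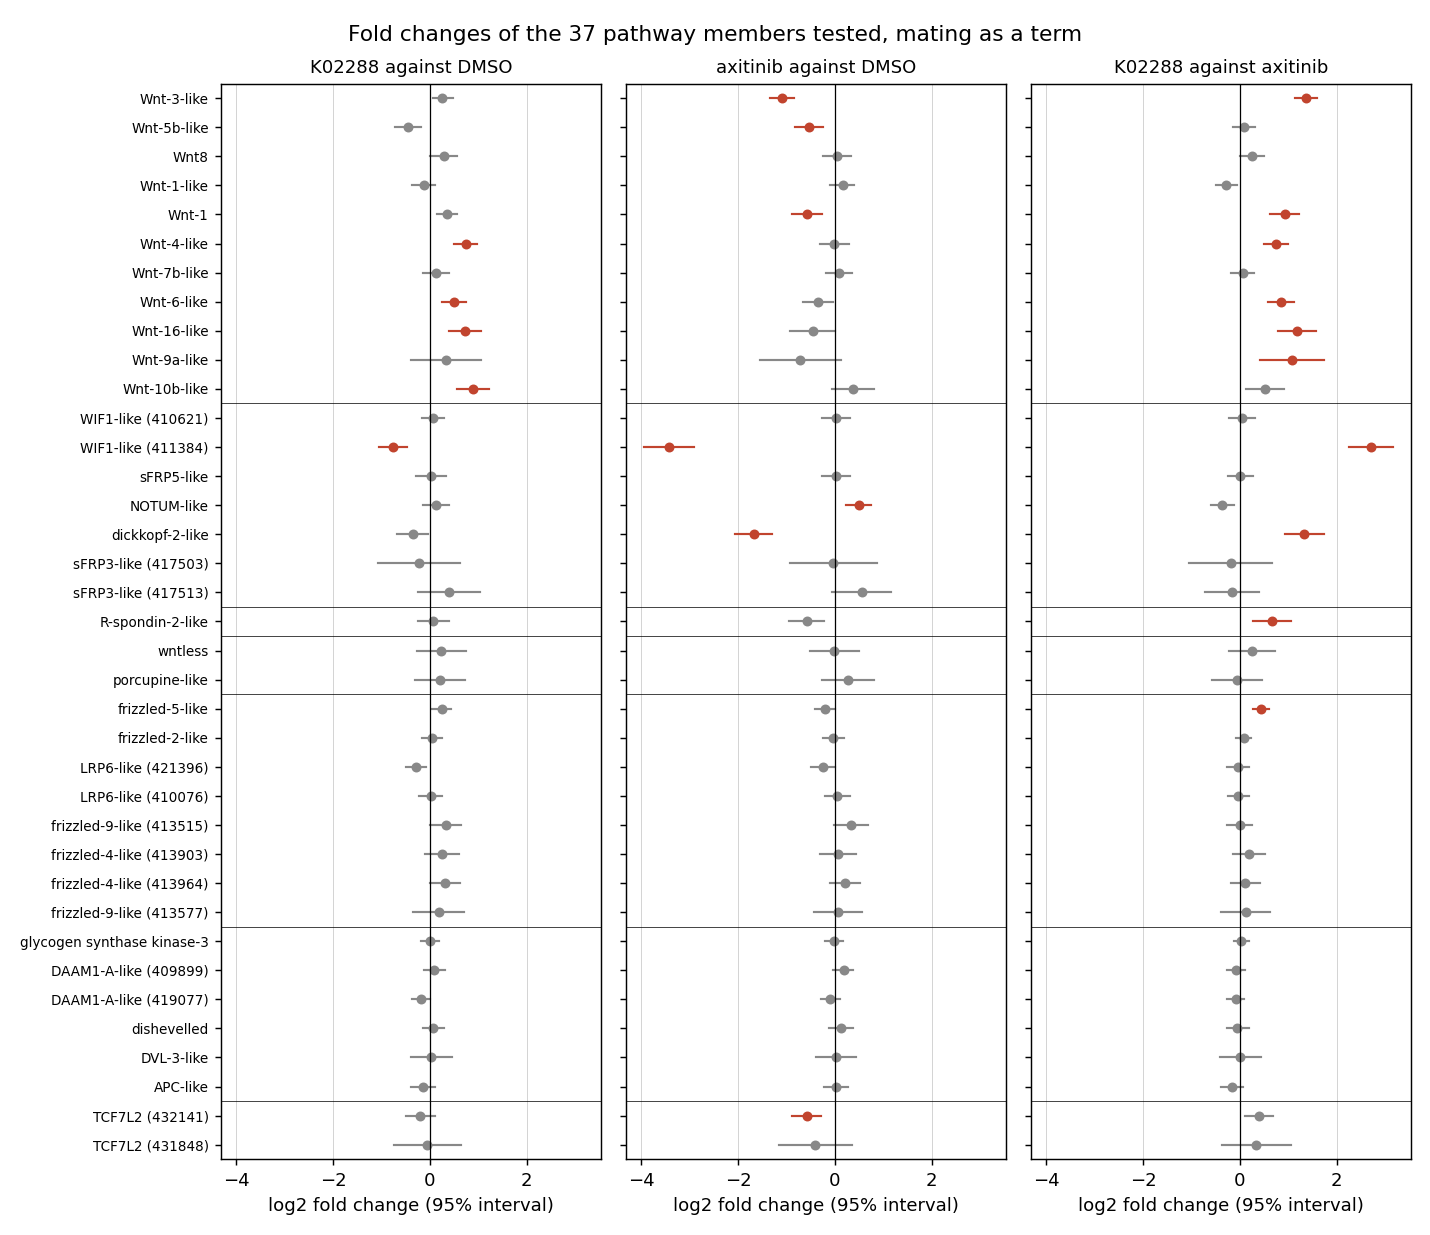
Log2 fold changes (points) with 95% intervals (lines) of the 37 pathway members tested, with the mating as a term, on 1 common scale. Red marks an adjusted *P* under 0.05 and gray marks the rest. The red points of K02288 against DMSO are 4 ligands to the right and WIF1-like LOC121411384 to the left. The cytoplasmic transducers stay gray in all 3 panels, as do most other members.

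The antagonists gave the greatest difference among the members. The WIF1-like gene LOC121411384 (chromosome 3, 54368792 to 54387288), described by its similarity to Wnt inhibitory factor 1, had 312, 169 and 213 normalized counts with K02288, 67.3, 19.1 and 25.6 with axitinib, and 410, 318 and 426 with DMSO. No treatments overlapped, and within each mating K02288 was intermediate and axitinib lowest. Against DMSO, axitinib gave -3.36 ± 0.453 (adjusted *P* = 0.0598) without the mating and -3.43 ± 0.241 (adjusted *P* = 2.33e-07) with it, a 10.8-fold lower level. The K02288 difference from DMSO was -0.73 ± 0.259 (adjusted *P* = 1) without the mating and -0.76 ± 0.140 (adjusted *P* = 0.00511) with it. K02288 was above axitinib by 2.71 ± 0.213 with the mating (adjusted *P* = 1.22e-06), so the response to the drugs differed in size. The K02288 call without the mating was lost without K02288 library 2 (-0.55) or 3 (-0.68), without DMSO library 1 (-0.69) or 3 (-0.65), and with all 9 libraries in 1 fit (-0.73).

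A second WIF1-like gene (LOC121410621, chromosome 3, 26012444 to 26034955) had nearly the same level in DMSO embryos but not the same response. It had 493, 428 and 505 normalized counts with K02288, 393, 539 and 452 with axitinib, and 521, 426 and 415 with DMSO. Its axitinib difference was 0.02, with an interval of -0.27 to 0.31, and its K02288 difference was 0.07 (-0.17 to 0.30), with the mating. With the mating, the intervals for the pair of WIF1-like genes did not overlap in either comparison with DMSO. Without the mating, those for K02288 overlapped (-1.34 to -0.13 for LOC121411384 and -0.32 to 0.45 for LOC121410621), and those for axitinib did not. The reads were assigned by the authors, and reads shared by near-identical genes were not tested.

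Dickkopf-2-like (LOC121432167, chromosome 18, 8922122 to 8929211), described by its similarity to a protein that binds LRP co-receptors, had 92.3, 181 and 183 normalized counts with K02288, 36.8, 69.5 and 74.6 with axitinib, and 132, 221 and 222 with DMSO. Mating 1 was the lowest with each treatment, and the axitinib libraries were below all the others. The axitinib value against DMSO was -1.67 ± 0.349 (adjusted *P* = 0.270) without the mating and -1.68 ± 0.183 (adjusted *P* = 2.9e-05) with it, a 3.21-fold lower level. The K02288 difference from DMSO was -0.35 ± 0.150 with the mating (adjusted *P* = 0.299), lower in 3 of 3 matings but not called. Between the drugs the difference was 1.33 ± 0.185 (adjusted *P* = 0.000265).

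NOTUM-like (LOC121414226, chromosome 4, 48926913 to 48968722), the enzyme that inactivates Wnts by removing their lipid, was the only pathway gene called higher with axitinib. It had 272, 297 and 400 normalized counts with K02288, 357, 410 and 469 with axitinib, and 271, 292 and 315 with DMSO. The axitinib libraries were above all DMSO libraries, and K02288 overlapped both. With axitinib the difference from DMSO was 0.49 ± 0.175 (adjusted *P* = 0.813) without the mating and 0.49 ± 0.121 (adjusted *P* = 0.0241) with it. K02288 against axitinib gave -0.36 ± 0.110, which did not pass (adjusted *P* = 0.0621). The axitinib call was lost with the mating without mating 2 (0.48) or 3 (0.45), in DESeq2 (0.49, adjusted *P* = 0.116) and in limma on log2(FPKM + 1) (0.44, adjusted *P* = 0.0635), and without the mating when axitinib library 3 (0.39) or DMSO library 1 (0.43) or 2 (0.49) was left out. The 3 secreted Frizzled-related proteins were not called. Secreted Frizzled-related protein 5-like varied between 251 and 335 normalized counts over the 9 libraries, with an axitinib difference of 0.03 (-0.27 to 0.32), while the pair of 3-like genes was too low for a narrow interval (-0.93 to 1.17 over both with axitinib).

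R-spondin-2-like (LOC121431080, chromosome 17, 22161107 to 22187687), a member of the family that enhances Wnt signaling at the receptor, had 211, 120 and 244 normalized counts with K02288, 130, 107 and 115 with axitinib, and 216, 128 and 192 with DMSO. The axitinib libraries were lowest in every mating, and the mating 2 libraries were low with each treatment. The axitinib difference was -0.61 ± 0.251 (adjusted *P* = 0.992) without the mating and -0.58 ± 0.171 with it, which missed the threshold (adjusted *P* = 0.0564). K02288 against axitinib passed under both rules, with 0.71 ± 0.293 (adjusted *P* = 0.946) and 0.66 ± 0.182 (adjusted *P* = 0.0358). The call for axitinib held when DMSO library 2 was left out and was lost without any other library (-0.69 to -0.46), and the call between the drugs without the mating was lost without any library but K02288 library 2 (0.49 to 0.79). Limma on FPKM also ended both (-0.57 to -0.48 and 0.54 to 0.63), and DESeq2 and the fit of all 9 libraries ended that for axitinib (-0.61 in each). With the mating, the call between the drugs was lost without mating 1 (0.65) or 3 (0.44, adjusted *P* = 0.343), in DESeq2 (0.65, adjusted *P* = 0.183) and in limma on log2(FPKM + 1) (0.54, adjusted *P* = 0.12).

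Of the 8 receptors tested, frizzled-5-like alone was called, and only between the drugs. Frizzled-5-like (LOC121422534, chromosome 1, 73763425 to 73768794), the relative of the Frizzled5/8 receptor of the sea urchin anterior neural ectoderm, had 3466, 2651 and 2840 normalized counts with K02288, 2518, 2080 and 1986 with axitinib, and 2823, 2185 and 2573 with DMSO. In each mating K02288 was highest and axitinib lowest. K02288 against axitinib gave 0.45 ± 0.161 (adjusted *P* = 0.777) without the mating and 0.44 ± 0.0757 (adjusted *P* = 0.00144) with it, or 1.36-fold. Against DMSO, K02288 gave 0.24 (adjusted *P* = 0.212) and axitinib -0.20 (adjusted *P* = 0.281), with the mating. The call without the mating was lost without K02288 library 1 (0.32) or axitinib library 2 (0.41) or 3 (0.38). Frizzled-2-like lay between 2368 and 2901 normalized counts over all 9 libraries, and its interval with the mating was -0.17 to 0.26 for K02288 and -0.24 to 0.18 for axitinib. Over the 7 other receptors tested, the log2 fold changes between the drugs ran from -0.04 to 0.19, with a lowest adjusted *P* of 0.583. LRP6-like LOC121421396 was the only receptor with a negative K02288 value (-0.29 ± 0.0984, adjusted *P* = 0.156).

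None of the 6 cytoplasmic transducers was called by either rule in any comparison, with 0 at an unadjusted *P* of at most 0.05 in edgeR under both fits. Glycogen synthase kinase-3, the kinase that marks β-catenin for destruction, had 3710, 3972 and 4044 normalized counts with K02288, 3501, 4000 and 4031 with axitinib, and 3756, 3923 and 4001 with DMSO. With the mating its log2 fold change was 0.00 for K02288 (interval -0.18 to 0.19) and -0.02 for axitinib (-0.21 to 0.17). Dishevelled (LOC446199) had 578, 565 and 789 normalized counts with K02288, 546, 531 and 973 with axitinib, and 537, 553 and 739 with DMSO, and mating 3 was the highest each time. A gene described as DVL-3-like lies 27645 bases from it on chromosome 14, with 0 annotated genes between, and had from 80.8 to 126 normalized counts. APC-like, 2 DAAM1-A-like genes (formins that bind Dishevelled) and the genes just named had log2 fold changes with the mating between -0.18 and 0.18 against DMSO. The 2 secretion genes, wntless and porcupine-like, were not called either, with a lowest adjusted *P* of 0.613 over the comparisons.

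The TCF7L2 genes encode relatives of the DNA-binding partner of β-catenin. The longer one (LOC121432141, chromosome 18, 2309598 to 2330391) had 224, 188 and 307 normalized counts with K02288, 170, 158 and 216 with axitinib, and 293, 233 and 288 with DMSO. Axitinib libraries were all below DMSO libraries, and K02288 overlapped both. For axitinib against DMSO the value was -0.58 ± 0.203 (adjusted *P* = 0.809) without the mating and -0.58 ± 0.143 (adjusted *P* = 0.0225) with it, and K02288 against DMSO gave -0.20 ± 0.138 (adjusted *P* = 0.606). The axitinib call was lost with the mating without mating 1 (-0.50) or 3 (-0.67), in DESeq2 (-0.58, adjusted *P* = 0.129) and in limma on log2(FPKM + 1) (-0.45, adjusted *P* = 0.139), and without the mating when axitinib library 1 or 2 or DMSO library 1 or 3 was left out (-0.53 to -0.50) and in limma on log2(FPKM + 1) with no filter (-0.45). The shorter TCF7L2 gene (LOC121431848) lies 122703 bases away on the same strand, with 0 annotated genes between. It had between 25.2 and 50.7 normalized counts and an axitinib difference of -0.40 (-1.15 to 0.36).

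Axin and β-catenin are spelled in the table in a form that the choice by description did not catch, and their values were looked up after the table had been seen. Axin (LOC446201), the scaffold of the destruction complex, had 1301, 1097 and 1097 normalized counts with K02288, 1246, 1125 and 1130 with axitinib, and 1331, 1048 and 1071 with DMSO. β-catenin (LOC446202) had 4851, 5251 and 7719 with K02288, 4417, 4814 and 6432 with axitinib, and 4620, 5136 and 7316 with DMSO, with mating 3 highest each time. At 74.6 ± 18.8 FPKM in DMSO embryos, β-catenin lay above glycogen synthase kinase-3. With the mating, axin differed from DMSO by 0.02 with K02288 (-0.17 to 0.21) and 0.03 with axitinib (-0.18 to 0.24), and β-catenin by 0.06 (-0.12 to 0.24) and -0.12 (-0.31 to 0.08). None of these passed, and the RNA level says nothing of the level or location of the protein.

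The 27 genes caught inside another word are mostly syntaxins, which fuse vesicles with membranes, syntaxin-binding proteins and ataxins. The median level of the 27 was 4.94 FPKM in DMSO embryos. Of the 26 tested, 0 passed in edgeR against DMSO with either drug and either rule, and the unadjusted *P* in the fit with the mating was at most 0.05 for 2 of them with K02288, against 13.2% of all genes tested, and for 3 with axitinib, against 17.8%. Syntaxin-12-like (LOC121430995) passed between the drugs without the mating. It had 72.1, 100 and 76.9 normalized counts with K02288, 114, 114 and 145 with axitinib, and 80.8, 102 and 104 with DMSO, and the log2 fold change was -0.57 ± 0.246 (adjusted *P* = 0.998). It was not called with the mating (adjusted *P* = 0.10), nor without it under RLE normalization, no filter, a filter of 10 counts or DESeq2 (-0.58 to -0.57), and leaving out any library but K02288 library 2 ended the call (-0.63 to -0.45).

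A list of 51 other genes of the pathway, taken by description, had 34 tested in each comparison. With K02288, 0 of 34 passed against DMSO in edgeR under either rule. Of all genes tested, 1.22% rose and 1.23% fell without the mating, and 1.83% rose and 1.05% fell with it, so 0 is near these shares. With axitinib, 0 rose and 2 fell without the mating, and 0 rose and 3 fell with it, where lower calls were 3.07% and 3.44% of all genes tested. Between the drugs, 2 were higher and 1 lower with K02288 without the mating, and 4 were higher and 1 lower with it, where higher calls were 3.22% and 5.06% of all genes tested and lower calls 1.77% and 3.10%. The median log2 fold change of the list with axitinib was 0.00 without the mating, against 0.01 over all genes. The largest value was that of tankyrase-2-like (LOC121411502), a relative of the enzyme that marks axin for degradation, which had 153, 138 and 170 normalized counts with K02288, 73.6, 45.3 and 63.5 with axitinib, and 198, 155 and 167 with DMSO. Its axitinib difference was -1.52 ± 0.190 with the mating (adjusted *P* = 0.000106). Prickle-3-like, of the planar cell polarity branch, fell with axitinib (-0.46 ± 0.129, adjusted *P* = 0.0483), as did glypican-5-like, a cell surface proteoglycan core protein (-0.39 ± 0.103, adjusted *P* = 0.0321). An LRP4-like gene (LOC121425939) was lower with K02288 than with axitinib (-0.75 ± 0.102, adjusted *P* = 0.000216).

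Lists of cell type markers were set beside these values, and only the skeletogenic sum lay apart from DMSO with both drugs. The summed level of 20 skeletogenic genes (spicule matrix, MSP130 and related descriptions, none at 0 counts) ran from 40479 to 50477 normalized counts with K02288, from 30140 to 40356 with axitinib and from 52928 to 65287 with DMSO. Of those tested with the mating, 1 rose and 6 of 17 fell with K02288, where 1.83% of all genes rose and 1.05% fell, and 0 rose and 7 of 16 fell with axitinib, where the shares were 2.79% and 3.44%. A list meant for the gut held 49 genes described as carboxypeptidases or alkaline phosphatases, 1 of them at 0 counts, but it includes cytosolic, tubulin-modifying and lysosomal carboxypeptidases that do not mark the gut. Its sum was 27346 to 29970 with K02288, 21904 to 25206 with axitinib and 25176 to 30625 with DMSO. With axitinib and the mating as a term, 1 of the 38 tested rose and 2 fell, against 2.79% and 3.44% of all genes. The 13 pigment cell genes (polyketide synthases and flavin-containing monooxygenases) gave 5936 to 8871 with K02288, 8067 to 12906 with axitinib and 5591 to 8641 with DMSO. A gene described as probable polyketide synthase 1, with 54911 counts over all libraries, weighs most in this sum. With axitinib, 1 of the 9 tested rose in either fit, against 1.77% of all genes without the mating and 2.79% with it. The sum of 11 muscle genes was 33036 to 36321 with K02288, 27714 to 33798 with axitinib and 31225 to 33133 with DMSO. A tropomyosin-like gene, with 211091 counts over all libraries, weighs most in it. The sum of 8 genes of ciliated cells was 15881 to 17439 with K02288, 17112 to 17916 with axitinib and 15247 to 16543 with DMSO. Its axitinib libraries thus lay above all DMSO libraries, while K02288 overlapped DMSO. Among these 8 genes and the 8 muscle genes tested, 0 passed against DMSO with either drug in edgeR. Of all genes, 1.05% to 3.44% passed per direction in these fits. A list meant for neurons also caught CUGBP Elav-like genes and further synaptotagmins by parts of their names, and these may not mark neurons. Of its 15 genes tested with axitinib, 1 fell in either fit, against 3.07% of all genes without the mating and 3.44% with it. With K02288, 0 of its 16 genes tested passed, where 1.83% of all genes rose and 1.05% fell with the mating. Set directly against axitinib with the mating as a term, K02288 was higher for 3 of 8 muscle genes, 3 of 17 skeletogenic genes and 6 of 39 genes of the carboxypeptidase and phosphatase list, against 5.06% of all genes. It was lower for 1 gene of that list and 2 of 9 pigment cell genes, against 3.10%. The part of these shifts in the changes of the Wnt pathway genes was not tested.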

How the data were processed

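Poly-A RNA of whole embryos was sequenced from strand-specific libraries, 3 per treatment. The authors mapped reads to the *L. variegatus* genome (v3.0) with HISAT2, whose version and counting tool are not given in the sources used here, and deposited raw whole-number counts per gene. They also deposited FPKM values, tested on the files to be the count divided by gene length and 1 scaled library size per library. The submitters' processing notes further name CASAVA 1.8. Coordinates are those of the count table and match RefSeq for Lvar_3.0 in start and end for all 68 genes whose description matched.

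Counts were analyzed in R 4.3.3 with edgeR 4.0.16 (filterByExpr, TMM, glmQLFit and glmQLFTest, two-sided), fitted on the whole table. The study used DESeq2, with a design formula not given in the sources used here. The SE is the log2 fold change divided by the square root of F. The study's methods state that replicates came from separate matings. After each treatment's mean was removed, libraries with the same number correlated with r between 0.706 and 0.750 (9 pairs, 16866 genes) and the 18 other pairs between -0.420 and -0.327. Removing the means makes the other pairs negative wherever the pairs with the same number are positive, so the negative values add no separate evidence. From the methods and the positive values, the number was taken to pair the libraries, and each comparison was fitted again with a replicate block for the mating.

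Genes were named where they passed either rule in any comparison, and other members by range and count. The members, lists and tests were chosen with earlier results of these data known. Alternatives were RLE normalization, no filter, at least 10 counts in every library, DESeq2 1.42.0, all 9 libraries in 1 fit, limma 3.58.1 on log2(FPKM + 1) or log2(FPKM + 0.1), and leaving out each library or mating. The patterns for aboral ectoderm markers, casein kinase I, catenin alpha or delta and LEF matched no description. Plots were made in Python 3.11.15 with matplotlib 3.10.9.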

Additional observations from a re-analysis of the deposited data

How the results depend on the processing

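Without the mating, the members called for K02288 against DMSO, axitinib against DMSO and K02288 against axitinib (5, 7 and 11) stayed within 1.5 times under RLE normalization, both other filters, DESeq2, all 9 libraries in 1 fit and limma on FPKM. They ran from 3 to 6, from 3 to 7 and from 7 to 11 when 1 library was left out. At the same unadjusted threshold, the replicate block gave 15, 13 and 18 of 63 members, against 13.2%, 17.8% and 19.6% of all genes tested. In the fits that had a mating term (5, 7 and 10 members), leaving out a mating gave 3 to 7, 3 to 7 and 8 to 12. DESeq2 with the replicate block gave 3 for K02288 and 3 for axitinib, and limma on log2(FPKM + 1) with the block gave 2 and 3. At an adjusted *P* under 0.05 without the block, 0, 0 and 1 members passed in edgeR, and 0, 3 and 5 in DESeq2. No fold change of a called member changed sign: 459 of the values under an alternative stayed past the threshold and 106 did not. The cause of the lost calls was not tested. Wnt-9a-like, secreted Frizzled-related protein 3-like and the shorter TCF7L2 gene were low, and their intervals were wide.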
